A study of Mus musculus with 2 samples.

Results

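Transcripts of the glucocorticoid receptor gene Nr3c1 and of 9 of its well-known direct target genes were followed in mouse hepatocytes, the liver's metabolic cells, grown in gel in 2 media. The 10 genes, chosen by symbol, were Nr3c1, Fkbp5, Tsc22d3, Per1, Zbtb16, Sgk1, Klf9, Dusp1, Ddit4 and Errfi1, and all of them were among the 28692 genes listed for both libraries. The cells were primary hepatocytes of C57BL/6 liver embedded in growth-factor reduced matrigel, a basement membrane preparation. The expansion medium held 3 uM CHIR99021, which blocks GSK3 and so switches on Wnt target genes, and the inflammatory cytokine TNFa at 100 ng/mL. The induction medium held neither of them and held 3 uM dexamethasone, a synthetic glucocorticoid. Both media held EGF (25 ng/mL), HGF (50 ng/mL), the ROCK inhibitor Y27632 (10 uM), the TGF-beta receptor inhibitor A83-01 (1 uM), B27 and N2 supplements, nicotinamide and N-acetylcysteine. The labels give no sex, age, number of animals, passage or time in either medium. Each medium had 1 droplet library, so differences between the media have neither replicates nor a test, and dexamethasone, CHIR99021 and TNFa cannot be told apart as their source.

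The glucocorticoid receptor is a nuclear receptor that waits in the cytoplasm in a complex with HSP90 chaperones. After it binds hormone it enters the nucleus, binds palindromic glucocorticoid response elements as a dimer and raises transcription of nearby genes, and it also restrains inflammatory transcription factors. In liver it is known for raising the genes of amino acid breakdown and glucose production during fasting and stress. The targets described here fall into several roles: a chaperone that limits the receptor itself (Fkbp5), transcriptional regulators (Tsc22d3, Per1, Zbtb16, Klf9) and brakes or branches of kinase signalling (Dusp1, Errfi1, Sgk1, Ddit4).

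Cells needed at least 500 genes and at most 25% mitochondrial transcripts, which 1191 expansion and 1245 induction cells met. They held 29390000 and 9201887 UMIs (counted transcript molecules), with a median of 23184 and 6765 per cell. Levels are given in CPM, the UMIs of a gene scaled to the total of the library, and a count of 3 UMIs, used as the floor, corresponds to 0.102 and 0.326 CPM. Every interval is at 95% and reflects counting error alone. The libraries shared 4 cell barcodes. Of the 10 hepatocyte markers checked, all were counted in both libraries, at 37019 and 60566 CPM in sum, and in every cluster of cells at least 8 of them were found in at least 50% of cells. Markers of T, NKT and innate lymphoid cells, which use Zbtb16, summed to 720 and 464 UMIs, of which Rora, a gene that hepatocytes also express, gave 713 and 464; Cd3e and Il7r were at 0 UMIs in both libraries. Kupffer cell and macrophage markers summed to 52 and 8 UMIs.

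The response element was looked for in the RefSeq promoter windows of the genes, 300 bases each (250 before and 50 from an annotated transcript start, build GRCm38.p6). Of the 10 genes, 8 had at least 1 window (17 in all), and Sgk1 had the most. Nr3c1 and Zbtb16 had none and were not searched. The full palindrome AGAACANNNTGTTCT, searched on both strands, was present in 3 of 32851 windows of all genes (0.00913%), and 1 of these 3 belongs to Sgk1. In the Sgk1 window its first base lies 189 bases before the start. The core ACANNNTGT, which lies inside the full palindrome, was in 2 of the 17 windows, both of Sgk1, against 6.85% of all windows. A single arm AGAACA was in 4 of the 17 against 19.0%. The windows of Fkbp5, Per1, Klf9, Dusp1, Ddit4 and Errfi1 held neither, which says only that these letters are absent from these windows. The cAMP response element TGACGTCA was in 1 window each of Dusp1 and Errfi1, against 1.79% of all windows. These matches are descriptions of letters, and no binding was measured. The Sgk1 window with the full element is shown with that of Tsc22d3, which holds 1 arm, and that of Fkbp5, which holds none; capitals mark the letters of the full element and of single arms, and each is written along its gene's own strand. Only the 250 bases before the start are printed.
Sgk1, chr10:21993640-21993889, plus strand: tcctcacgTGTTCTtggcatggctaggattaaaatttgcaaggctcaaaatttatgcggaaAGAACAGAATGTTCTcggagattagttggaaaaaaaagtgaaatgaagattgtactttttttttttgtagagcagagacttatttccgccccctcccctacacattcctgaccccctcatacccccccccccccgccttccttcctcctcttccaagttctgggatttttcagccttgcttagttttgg
Tsc22d3, chrX:140600523-140600772, minus strand: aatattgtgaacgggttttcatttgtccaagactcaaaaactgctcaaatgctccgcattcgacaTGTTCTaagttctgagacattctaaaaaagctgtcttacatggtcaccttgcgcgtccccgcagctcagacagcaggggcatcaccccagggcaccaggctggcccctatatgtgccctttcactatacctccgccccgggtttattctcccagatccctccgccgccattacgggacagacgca
Fkbp5, chr17:28486150-28486399, minus strand: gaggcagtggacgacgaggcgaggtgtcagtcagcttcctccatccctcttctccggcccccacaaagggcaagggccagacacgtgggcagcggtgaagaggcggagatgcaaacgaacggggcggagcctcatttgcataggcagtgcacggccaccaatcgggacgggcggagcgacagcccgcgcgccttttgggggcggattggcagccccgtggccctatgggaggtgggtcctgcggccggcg

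Of the 10 genes, 8 stood at least 2-fold higher in induction medium, all of them targets, and none stood at least 2-fold lower. The same rule (a ratio of at least 2, an interval that excludes 1, and at least 10 CPM in the higher library) called 9.17% of 7220 genes higher and 3.17% lower. The median log2 ratio of induction over expansion was 1.77 over the 10 genes and 1.97 over the 9 targets, beside 0.21 over all genes tested. The median gene, among those with 50 UMIs or more in each library, was itself shifted by 0.22 on the log2 scale. Relative to that median gene, 6 of the 10 were at least 2-fold higher and none lower, beside 6.65% and 4.67% of all genes; Per1 and Ddit4 were the targets no longer called, at just under 1.00 and at 0.87. At a limit of 1.5-fold the count was again 8 of 10 (21.1% of all genes), and all 10 had an interval above a ratio of 1 (50.8% of all genes). The remaining 2 of the 10, Nr3c1 and Sgk1, lay within 2-fold on either scale. Together the 10 genes took 513 CPM in expansion and 1647 CPM in induction medium, and Errfi1 alone took 243 and 952 CPM of this.

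**Figure D1:**
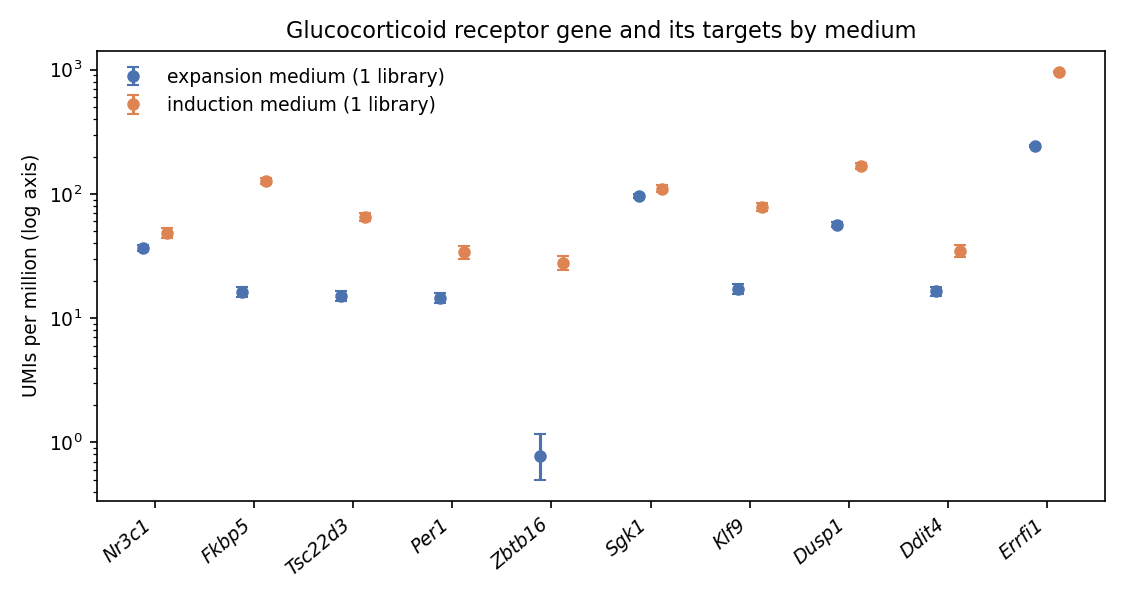
Level of each gene in CPM (vertical axis, log scale) in the expansion library (blue) and the induction library (orange), with bars for the exact Poisson 95% interval of the count. Zbtb16 shows the widest gap, from 0.783 to 27.8 CPM, and Nr3c1 and Sgk1 show the narrowest.

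**Figure D2:**
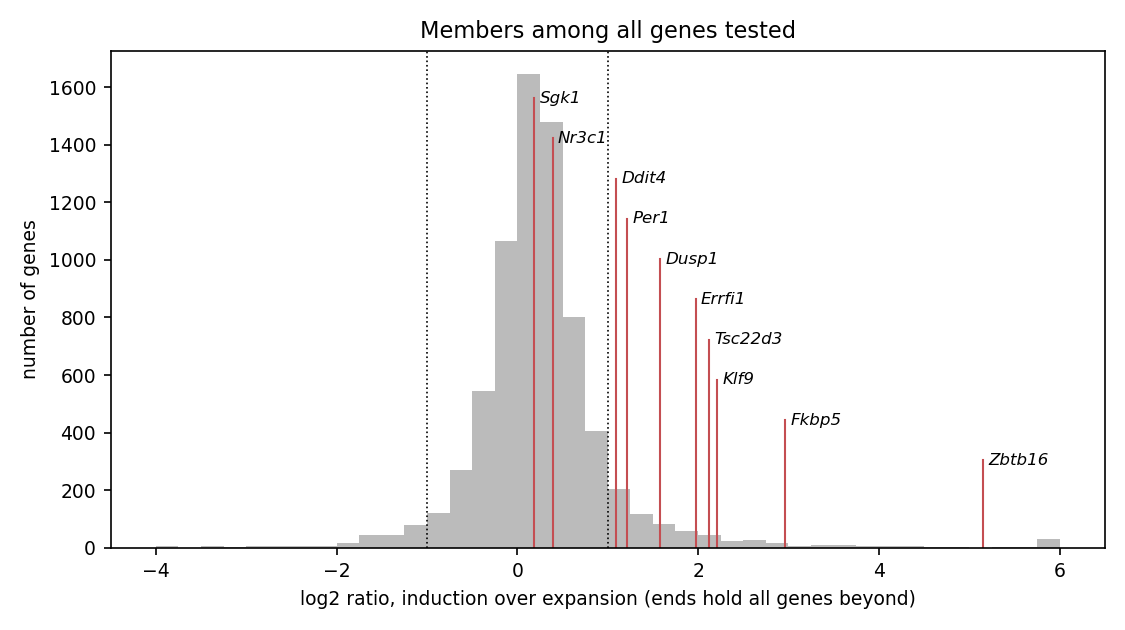
Number of genes (vertical axis) by log2 ratio of induction over expansion (horizontal axis) for the 7220 genes tested, in grey, with red lines at the 10 genes; the heights of the lines only separate the names, and dotted lines mark a 2-fold difference. Sgk1 and Nr3c1 lie inside the bulk of genes, and the other genes lie to the right of the upper dotted line.

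The receptor gene itself differed little between the media. Nr3c1 (chromosome 18, 39410545 to 39519421 on GRCm38, minus strand) had 1082 UMIs in the expansion library, or 36.8 CPM (34.7 to 39.1), and 444 UMIs in the induction library, or 48.3 CPM (43.9 to 53.0). The ratio was 1.31 and its log2 value 0.39 (0.23 to 0.55), at percentile 65.9 of all genes tested. To compare cells at equal depth, 2000 UMIs were drawn from each; an Nr3c1 UMI was then present in 7.56% of expansion cells (90 of 1191; 6.12 to 9.21) and 9.50% of induction cells (117 of 1231; 7.92 to 11.3). Without thinning the order turned, at 58.0% and 28.3%, with the deeper library giving the larger share. No cell held more than 6 Nr3c1 UMIs.

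Like most genes tested, the measured chaperones and coregulators of the receptor lay within 2-fold. Over all genes tested, 9.17% were called higher and 3.17% lower, so this is a description only. None of the 14 chaperones and co-chaperones measured was 2-fold apart (list median log2 ratio 0.06). The 2 cytosolic HSP90 genes stood at 183 and 197 CPM (Hsp90aa1) and at 1147 and 1069 CPM (Hsp90ab1), and Fkbp4, the close relative of Fkbp5 that helps carry the receptor to the nucleus, at 105 and 102 CPM. None of 13 measured coregulators was 2-fold apart (median 0.16), with the corepressor Ncor1 at 82.2 and 93.5 CPM and the coactivator Ncoa2 at 15.2 and 19.0 CPM. Of the genes that supply or clear glucocorticoid, 3 of 9 were measured, and Serpina6, which encodes the plasma carrier of corticosteroids, was lower in induction medium, at 63.7 and 12.1 CPM. Hsd11b1, whose enzyme makes active glucocorticoid in liver, had 0 and 8 UMIs, and H6pd, which supplies its cofactor, had 3347 and 1855. These are raw counts out of 29390000 UMIs in the expansion and 9201887 in the induction library. Scaled to these totals, H6pd was higher in induction medium, by less than 2-fold. The mineralocorticoid receptor gene Nr3c2 had 74 and 30 UMIs.

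Fkbp5 encodes an HSP90 co-chaperone that lowers the hormone affinity of the receptor, a negative feedback. It lies on chromosome 17 (28399094 to 28517527, minus strand). It had 479 UMIs in the expansion library (16.3 CPM, 14.9 to 17.8) and 1171 in the induction library (127 CPM, 120 to 135), so the library with fewer UMIs in total held more of this gene. The ratio was 7.81 (log2 2.96, 2.81 to 3.12). Among thinned cells, 3.19% in expansion (38 of 1191) and 23.6% in induction medium (291 of 1231; 21.3 to 26.1) held at least 1 UMI. Its abundance rank among all listed genes was 4844 in expansion and 923 in induction medium.

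The 4 transcriptional regulators were all at least 2-fold higher in induction medium. Tsc22d3 encodes GILZ, a leucine zipper protein that mediates anti-inflammatory actions of glucocorticoids; it lies on chromosome X (140539528 to 140600659) and stood at 15.1 CPM (443 UMIs) and 65.3 CPM (601 UMIs), a log2 ratio of 2.12 (1.94 to 2.30). Klf9, a zinc finger factor on chromosome 19 (23141226 to 23168134), stood at 17.1 CPM (503 UMIs) and 79.0 CPM (727 UMIs), a log2 ratio of 2.21 (2.04 to 2.37). Both were found in more of the thinned cells of induction medium: 50 of 1191 and 164 of 1231 cells for Tsc22d3, and 44 of 1191 and 179 of 1231 cells for Klf9.

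Zbtb16 encodes PLZF, a zinc finger repressor, and had the largest ratio of the 10 genes. It lies on chromosome 9 (48654297 to 48836222). It had 23 UMIs in 23 of 1191 expansion cells, 0.783 CPM (0.496 to 1.17), and 256 UMIs in 217 of 1245 induction cells, 27.8 CPM (24.5 to 31.4). The log2 ratio was 5.15 (4.53 to 5.84), at percentile 99.5 of all genes tested. No expansion cell held more than 1 UMI, and the highest induction cell held 4. In thinned cells the shares were 0.0840% (1 of 1191) and 6.66% (82 of 1231; 5.33 to 8.20). Zbtb16 was the only 1 of the 10 genes that reached 10 CPM in the induction library alone. The transcript was thus near the floor in one medium and spread thinly over many cells in the other.

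Per1, the clock repressor whose promoter also answers to glucocorticoid and cAMP, lies on chromosome 11 (69095217 to 69109960). It stood at 14.6 CPM (428 UMIs) and 33.8 CPM (311 UMIs), a log2 ratio of 1.21 (1.00 to 1.43). It came from 3.27% and 6.09% of thinned cells. Of 13 other clock genes measured, 3 were at least 2-fold higher and none was lower, beside 9.17% and 3.17% of all genes. They were its paralog Per2 (5.51 and 13.5 CPM) and the output factors Hlf (14.4 and 37.5 CPM) and Tef (21.0 and 45.3 CPM). Of the 13, 2 reached 10 CPM in the induction library alone, Per2 among them, so the count is a description only.

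The kinase regulators split. Dusp1, a phosphatase that switches off MAP kinases and is a classical anti-inflammatory target, stood at 56.4 CPM (1658 UMIs; 53.7 to 59.2) and 168 CPM (1548 UMIs; 160 to 177), a log2 ratio of 1.58 (1.48 to 1.68). Its annotated span on chromosome 17 (26505590 to 26562128, minus strand) overlaps Ergic1 on the other strand (1945 and 925 UMIs), and the sources used here do not say whether the counting used strand. Errfi1, the feedback inhibitor of the EGF receptor, lies on chromosome 4 (150853919 to 150868892) and was the most abundant of the 10 by UMI count. It had 7131 UMIs in expansion (243 CPM, 237 to 248) and 8758 in induction medium (952 CPM, 932 to 972), a ratio of 3.92. It was found in 37.4% and 78.6% of thinned cells. Ddit4, which encodes REDD1, an inhibitor of mTORC1, lies on chromosome 10 (59949669 to 59951834) and stood at 16.4 CPM (482 UMIs) and 34.9 CPM (321 UMIs), a log2 ratio of 1.09 (0.88 to 1.30).

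Sgk1, a kinase of the AKT family that controls ion transport and survival, was the target with the smallest difference. It lies on chromosome 10 (21882184 to 21999903). It had 2844 UMIs in the expansion library (96.8 CPM, 93.2 to 100.4) and 1015 in the induction library (110.3 CPM, 104 to 117). The log2 ratio was 0.19 (0.08 to 0.29), at percentile 47.8 of all genes tested, and it was -0.03 relative to the median gene and -0.01 with mitochondrial and ribosomal protein genes left out of the total. It was found in 16.9% and 17.5% of thinned cells. Of the 8 genes with a promoter window, only Sgk1, which had the most windows, held the full palindrome. Sgk1 was also the target nearest to no difference, although its direction depended on the cells, as later paragraphs describe. A link between the element and the level was not tested.

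Most measured genes in the broad and hepatic lists of other receptor targets were at least 2-fold higher, and none in the anti-inflammatory list was. That list leaves out Dusp1 and Tsc22d3, which are among the genes followed here. In these lists a gene needed 10 CPM in at least 1 library. In the induction library alone, 4 of the broad and 4 of the hepatic targets reached it, and 3 and 4 of these were called higher. The counts are therefore a description only, beside 9.17% of all genes called higher. Of the 10 hepatocyte markers checked, 6 were also called higher and none lower, with a median log2 ratio of 1.23. A high count was thus not particular to the lists of receptor targets. Whether these lists differ from hepatocyte genes in general was not tested. Of 13 measured targets of broad tissue range, 8 were at least 2-fold higher and none lower (median 1.28). Among them were Fam107a, an actin-binding protein (176 and 1360 UMIs), Angptl4, an inhibitor of lipoprotein lipase (7.04 and 61.1 CPM), the phosphatidate phosphatase Lpin1 (24.9 and 96.0 CPM) and the lipid droplet protein Plin2 (23.1 and 83.1 CPM). Of 9 measured hepatic targets, 8 were at least 2-fold higher (median 2.11), including Igfbp1, which binds IGF1 (81.0 and 598 CPM), and Por, the electron donor of cytochromes P450 (53.1 and 229 CPM). Tat had 1 and 1393 UMIs and G6pc 0 and 154. None of the 8 measured anti-inflammatory targets was 2-fold apart (median 0.11), with the NF-kB inhibitor Nfkbia at 514 and 459 CPM, the mRNA decay factor Zfp36 at 92.9 and 162 CPM and Tnip1 at 151 and 98.8 CPM. These lists were drawn up with earlier results of these data known.

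Among paralogs of the targets, the share called higher was 25.0%, beside 9.17% of all genes. Of 20 measured paralogs, 5 were at least 2-fold higher and none lower, and the list median was 0.46. The 5 were Klf10 (16.4 and 75.7 CPM), Klf13 (22.7 and 62.9 CPM), Klf15 (15.3 and 48.6 CPM), Tsc22d2 (28.8 and 72.1 CPM) and Per2. Per2 was the only 1 of the 20 that reached 10 CPM in the induction library alone. Tsc22d1 stood at 84.3 and 68.2 CPM, Fkbp1a at 199 and 237 CPM, Dusp6 at 36.4 and 48.1 CPM and Ddit4l, the relative of Ddit4, at 15.1 and 11.6 CPM.

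Several of the targets also answer to other signals, and marker genes of those signals were counted beside them. Jun (108 and 288 CPM) was the 1 of 11 measured immediate early genes past 2-fold (list median 0.50), with Fos at 150 and 179 CPM and Egr1 at 277 and 368 CPM. Of 11 genes induced by ATF4 or hypoxia, which also raise Ddit4, 4 stood higher by at least 2-fold and 1 stood lower (median 0.64). Over all genes tested, 9.17% were called higher. Of the 11, 4 reached the minimum of 10 CPM in the induction library alone, and 3 of the 4 called higher (Asns, Trib3 and Pfkfb3) are among them, so the count is a description only. The 4 called higher were Asns (5.78 and 13.8 CPM), Trib3 (3.44 and 10.9 CPM), Pfkfb3 (3.10 and 11.4 CPM) and Bnip3 (22.8 and 50.4 CPM), and the lower one was Egln3 (76.6 and 26.1 CPM). Of 11 genes of EGF and MAP kinase feedback, the pathway that also raises Errfi1 and Dusp1, none was at least 2-fold higher and 3 were lower (median -0.36): Phlda1 (118 and 37.8 CPM), Etv4 (18.0 and 6.19 CPM) and Etv5 (416 and 46 UMIs). The other 8 lay within 2-fold, and 3.17% of all genes were called lower. Of 14 genes around mTORC1 and AKT, 3 were at least 2-fold higher, Txnip (30.0 and 134 CPM), Foxo1 (15.7 and 45.0 CPM) and Nedd4l, a ubiquitin ligase that Sgk1 phosphorylates (7.69 and 21.0 CPM). Of the 14, 2 reached 10 CPM in the induction library alone, Nedd4l among them. The part of these signals in the levels of the targets was not tested.

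Single cells of the induction library held more of the 9 targets at once. After thinning to 2000 UMIs, a cell held a mean of 1.03 UMIs of the 9 targets in expansion and 3.48 in induction medium. No target was found in 38.5% of expansion cells (459 of 1191; 35.8 to 41.4) and in 8.04% of induction cells (99 of 1231; 6.58 to 9.70). At least 3 different targets were found in 3.02% (36 cells; 2.13 to 4.16) and 29.2% (360 cells; 26.7 to 31.9). Errfi1 carried much of this, and with it left out at least 1 of the other 8 targets was found in 39.0% and 68.4% of cells. Too shallow for thinning were 14 cells, all of the induction library. With all UMIs, 0.504% and 0.562% of cells held no target. No cell type without these genes was present to gauge free RNA, so Xist, an RNA of female cells, was used: it was found in 8.21% of thinned expansion cells that had a Y-linked UMI and in 66.2% of those that had none, and in 2.68% and 52.8% in induction medium. The free RNA in the share of any one target was not measured.

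**Figure D3:**
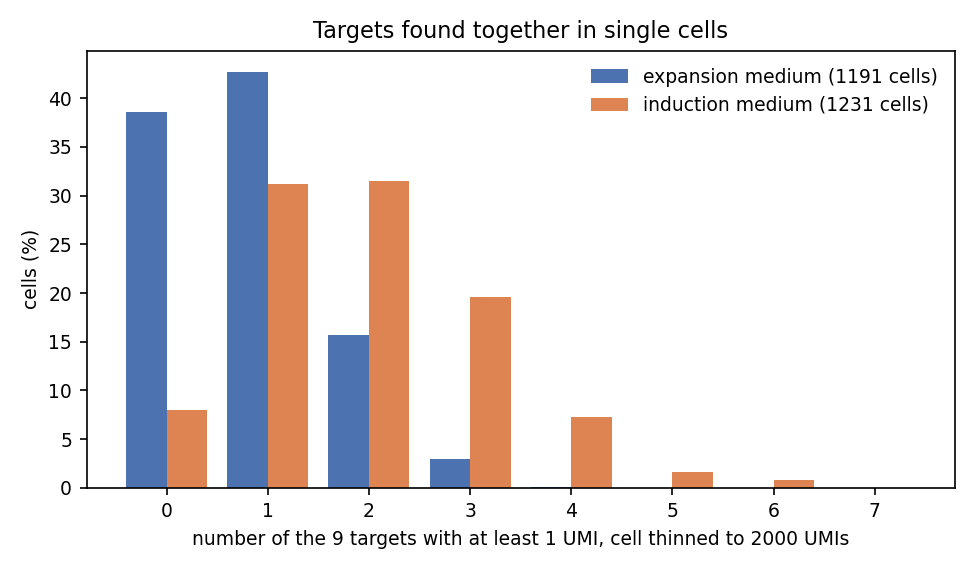
Share of cells (vertical axis, percent) by the number of the 9 targets with at least 1 UMI (horizontal axis) at 2000 UMIs per cell, for 1191 expansion cells (blue) and 1231 induction cells (orange). Expansion cells peak at 1 target (42.7%), and induction cells spread over 1 and 2 targets (31.2% and 31.5%) up to 6.

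The targets varied only loosely together from cell to cell. Over the 45 pairs of the 10 genes, Pearson's r of log-scaled values over cells had a median of 0.01 in expansion (1191 cells) and 0.08 in induction medium (1245 cells), and the highest, Fkbp5 with Sgk1 in induction medium, was 0.20. Counts this sparse hold r near 0, so these values say little about single pairs. Thinned cells with an Nr3c1 UMI held a mean of 1.08 target UMIs in expansion and 3.58 in induction medium, and cells without one held 1.02 and 3.47. In induction medium, UMIs of thinned cells were spread more unevenly than Poisson counting gives for Errfi1 (variance over mean 1.84) and Sgk1 (1.72), while for Fkbp5, Tsc22d3, Klf9, Per1 and Zbtb16 this value lay between 0.957 and 1.09; Dusp1 (1.30), Ddit4 (1.19) and Nr3c1 (1.10) lay between. This value rises with the mean count, so it does not rank the genes by unevenness. The mean was 2.07 UMIs for Errfi1, and for the other genes it ran from 0.065 (Per1) to 0.371 (Dusp1). A single induction cell held up to 9 Sgk1 UMIs out of 2000.

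Errfi1 had the closest companions among other genes. Of 2266 genes at 50 CPM or more in induction medium, those most alike over cells were Cyp3a11 (r = 0.49), Apoc1 (0.42) and Cdo1 (0.41), all abundant liver genes; in expansion medium, out of 1937 genes, they included Cp (0.43) and C3 (0.43). Errfi1 itself had an r with the log of the cell's total UMIs of -0.24 in induction medium and -0.12 in expansion medium. For Sgk1 in induction medium the most alike were Xist (0.40), Tmsb4x (0.27) and Tat (0.24), and for Dusp1 they were Tat (0.23), Fmo5 (0.21) and Egr1 (0.21). Nr3c1, Tsc22d3, Per1 and Zbtb16 had no gene at 0.2 or above in either library. The cells of a library share its depth and free RNA, and these values carry no test.

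Across clusters of cells the ranges of several targets did not overlap between the media. Clusters were found in each library without the 10 genes, Xist and the Y-linked genes, which gave 7 expansion clusters and 9 induction clusters, of which 8 had at least 20 cells. Fkbp5 ranged from 10.6 to 26.0 CPM over expansion clusters and from 67.6 to 214 CPM over the 8 induction clusters. Tsc22d3 (8.48 to 19.7 and 47.3 to 102 CPM), Klf9 (12.1 to 30.7 and 46.7 to 106 CPM), Dusp1 (41.8 to 86.0 and 87.2 to 296 CPM) and Zbtb16 (0.424 to 1.16 and 16.1 to 54.6 CPM) did not overlap either. For Dusp1 the ranges nearly met. Its intervals overlapped between expansion cluster 7 (75.2 to 97.8 CPM) and induction cluster 4 (69.2 to 108 CPM). The ranges of Per1, Ddit4, Errfi1, Nr3c1 and Sgk1 overlapped. How many of all genes have ranges that separate in this way was not counted. The separation is therefore a description only, and it goes with the ratios between the whole libraries given above. Sgk1 spanned 54.7 to 135 CPM in expansion and 40.8 to 260 CPM in induction medium, so 2 of the 8 induction clusters lay above every expansion cluster. The smallest induction cluster, 6 cells that all had Xist and were led by Derl3, stood at 1363 CPM of Sgk1 (28 UMIs; 906 to 1970).

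**Figure D4:**
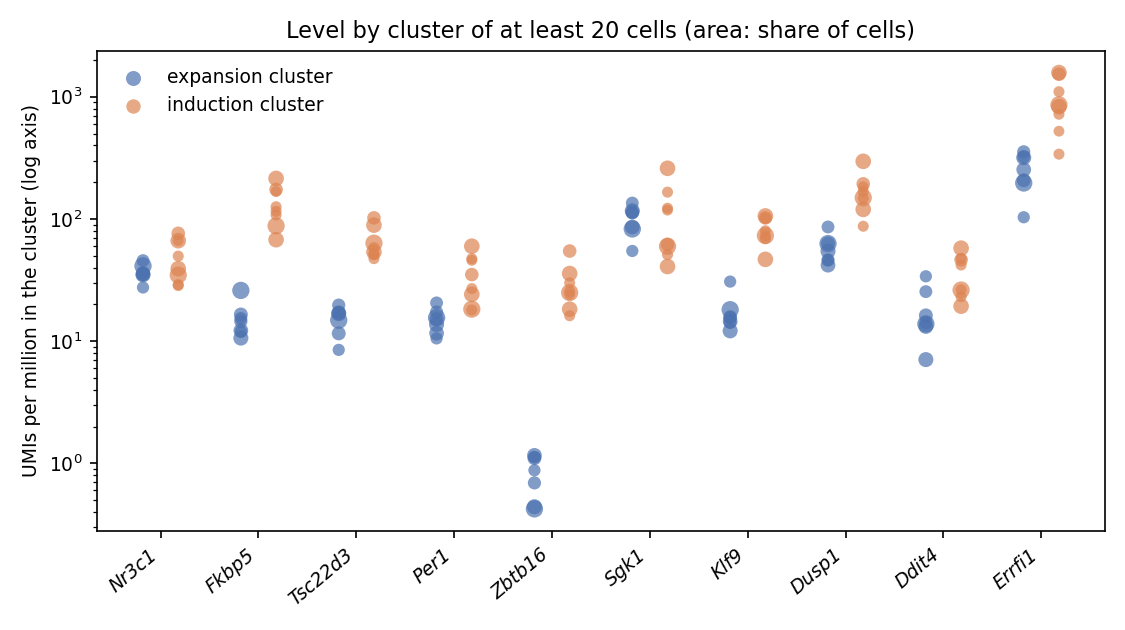
Level of each gene in CPM (vertical axis, log scale) in each cluster of at least 20 cells, for 7 expansion clusters (blue) and 8 induction clusters (orange), with the area of a point growing with the cluster's share of cells. The points of Fkbp5, Tsc22d3, Zbtb16 and Klf9 separate by medium, those of Dusp1 nearly meet, and those of Sgk1 overlap.

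Within induction medium most targets were highest in the same cluster. Among clusters of at least 20 cells, 7 of the 9 targets were highest in cluster 5. They were Fkbp5 (214 CPM), Per1 (59.8), Sgk1 (260), Klf9 (106), Dusp1 (296), Ddit4 (57.6) and Errfi1 (1577). For Sgk1 and Dusp1 the interval lay above that of the next cluster. For Fkbp5, Per1, Klf9, Ddit4 and Errfi1 the intervals overlapped, and cluster 3 came close for Errfi1 (1528 CPM) and Klf9 (102 CPM). How many of all genes were highest in cluster 5 was not counted, so this count is a description only. Most cells of cluster 5 had Xist, as a later paragraph describes. Tsc22d3 and Zbtb16 were highest in cluster 3, with intervals that overlapped those of cluster 5. Induction cluster 5 (221 cells, led by Slco1b2, Slc22a30, Rapgef4, Slco1a4 and Tat) had the highest summed level of the 9 targets among clusters of at least 20 cells, 2695 CPM, and cluster 3 (158 cells, with Fam13a, Thrsp, Tns1 and Lpin1 among its leading genes) had 2298 CPM. Cluster 3 had the highest levels of Tsc22d3 (102 CPM), Zbtb16 (54.6 CPM) and Nr3c1 (76.3 CPM, 59.9 to 95.7), yet Sgk1 stood there at 61.8 CPM (47.2 to 79.6), against 260 CPM (233 to 288) in cluster 5. The Nr3c1 intervals of clusters 3, 5 and 9 overlapped (59.9 to 95.7, 53.4 to 81.5 and 50.5 to 85.9 CPM). Cluster 4 (92 cells, led by Sprr1a, Serpine2, Pcdh9, Nes and Akap12) had the lowest sum, 938 CPM, and the lowest Errfi1 (339 CPM, 303 to 378), while its Sgk1 (166 CPM, 141 to 194) and Klf9 (101 CPM) were among the higher values. The expansion cluster with some of the same leading genes (cluster 6, led by S100a6, Serpine2, Sprr1a, Pmm1 and Hmga2) likewise had the lowest Errfi1 of its library (103 CPM, 92.8 to 115). It also had the highest Klf9 (30.7 CPM) and Ddit4 (33.9 CPM, 28.0 to 40.7) of its library. Ddit4 in induction cluster 4 (47.3 CPM) was below that of cluster 5. Sgk1 went the other way: expansion cluster 6 had the lowest of its library (54.7 CPM, 47.1 to 63.1).

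Errfi1 and Fkbp5 differed in opposite directions in cells with transcripts of cycling cells. In induction medium, 80 thinned cells with at least 2 G2/M genes stood at 530 CPM of Errfi1 and the 1151 others at 993 CPM (log2 ratio -0.91, -1.05 to -0.77), and in expansion medium the values were 201 and 248 CPM. Fkbp5 went the other way. It stood at 165 and 123 CPM in induction medium (log2 ratio 0.42, 0.15 to 0.68). In expansion medium it stood at 24.3 and 15.3 CPM (0.67, 0.31 to 1.02). Most cells of induction cluster 9 had at least 2 G2/M genes. There 50.6% of cells had Xist and no Y-linked UMI, beside 33.1% of all induction cells. In that cluster Fkbp5 stood at 219 CPM (179 to 265) in those cells. It stood at 81.2 CPM (50.3 to 124) in cells with a Y-linked UMI and no Xist. Over all induction clusters these kinds of cells stood at 180 and 98.2 CPM. The part of this mix in the Fkbp5 difference was not tested. The ratio between the media was nearly the same without the cycling cells, with log2 values of 3.01 for Fkbp5 and 2.00 for Errfi1, and 8 of the 10 genes were again at least 2-fold higher (9.67% of all genes).

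Both libraries mixed cells with Xist, an RNA of female cells, and cells with transcripts of the Y chromosome, so they held cells of both sexes. A further 275 expansion and 22 induction cells held UMIs of both, and 86 and 308 held neither. Taken apart, these cells gave opposite directions for Sgk1. In cells with Xist and no Y-linked UMI (325 and 412 cells), Sgk1 stood at 104 CPM (853 UMIs) in expansion and 209 CPM (642 UMIs) in induction medium, a log2 ratio of 1.01 (0.86 to 1.16). In cells with a Y-linked UMI and no Xist (505 and 503 cells) it stood at 97.8 CPM (1177 UMIs) and 59.5 CPM (240 UMIs), a log2 ratio of -0.72 (-0.92 to -0.51). Between the 2 kinds of cells, Sgk1 differed by a log2 ratio of 0.09 (-0.04 to 0.21) in expansion medium and 1.81 (1.60 to 2.03) in induction medium. In thinned induction cells, 30.5% of the first kind (124 of 406) and 10.6% of the second kind (53 of 502) held an Sgk1 UMI. The difference between the 2 kinds of cells was not tested, since each medium had 1 library.

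**Figure D5:**
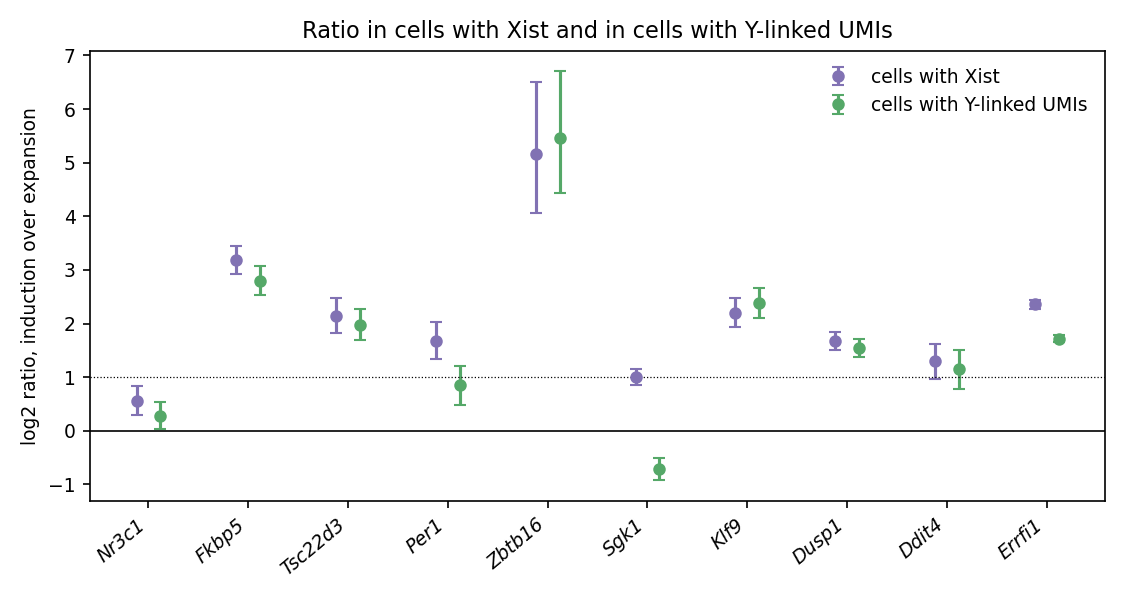
Log2 ratio of induction over expansion (vertical axis) of each gene in cells with Xist and no Y-linked UMI (purple) and in cells with a Y-linked UMI and no Xist (green), with bars for the 95% counting interval; the solid line marks no difference and the dotted line a 2-fold higher level. Sgk1 lies at 1.01 in the first and -0.72 in the second, and the other 9 genes lie above 0 in both.

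The other genes kept 1 direction in both kinds of cells. In cells with Xist, 9 of the 10 genes were at least 2-fold higher (12.0% of all genes), and in cells with Y-linked transcripts 7 were (8.46%), with Per1 (14.3 and 25.8 CPM), Sgk1 and Nr3c1 outside the count. The log2 ratios were 3.18 and 2.80 for Fkbp5, 2.14 and 1.98 for Tsc22d3, 2.20 and 2.38 for Klf9, 5.15 and 5.46 for Zbtb16, 1.67 and 1.54 for Dusp1, and 2.36 and 1.72 for Errfi1. Genes with at least 50 UMIs were shifted by a median of 0.29 in the first kind of cells and 0.21 in the second. Within induction medium, Fkbp5 (180 and 98.2 CPM), Per1 (49.5 and 25.8 CPM) and Ddit4 (50.8 and 28.3 CPM) stood higher in cells with Xist by log2 ratios of 0.87 (0.68 to 1.06), 0.94 (0.57 to 1.31) and 0.85 (0.49 to 1.21), and so did Dusp1 (0.55), Klf9 (0.44), Nr3c1 (0.37) and Errfi1 (0.31), while the intervals of Tsc22d3 (0.21) and Zbtb16 (0.05) included 0. In expansion medium Ddit4 (0.69, 0.37 to 1.02), Klf9 (0.62, 0.31 to 0.93), Fkbp5 (0.49, 0.17 to 0.81) and Dusp1 (0.42, 0.25 to 0.59) also stood higher in cells with Xist, and Errfi1 stood lower (-0.33, -0.42 to -0.25).

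Cell state moved with this split. In induction cluster 5, 96.8% of cells had Xist, and it held 214 of the 412 such cells. Sgk1 stood at 261 CPM in those 214 cells (234 to 290) and at 170 CPM (151 to 190) in the 198 cells with Xist in other clusters, against 59.6 CPM (52.3 to 67.6) in the 502 cells with Y-linked transcripts there. In each of the 5 induction clusters with at least 20 cells of both kinds, Sgk1 was higher in the cells with Xist. The gap was wide in cluster 1 (136 against 44.9 CPM) and cluster 9 (192 against 23.2 CPM, the latter from 6 UMIs). The intervals overlapped in cluster 4 (143 to 243 and 108 to 175 CPM) and cluster 8 (125 to 220 and 71.3 to 135 CPM). Fkbp5 was also higher in the cells with Xist in 5 of 5 clusters. Tsc22d3 was in 1 of 5 and Errfi1 in 2 of 5. For Errfi1 (1592 CPM in cluster 5 and 706 CPM in the other cells with Xist, against 876 CPM in the cells with Y-linked transcripts) and Dusp1 (301, 141 and 144 CPM), the higher level of cells with Xist was thus seen in cluster 5 and not in the pooled other clusters. Expansion medium had a like cluster, number 7, where 83.3% of cells had Xist; it held 110 of the 325 such cells. Among expansion clusters it had the highest Sgk1 (135 CPM) and the highest sum of the 9 targets (637 CPM). In the 4 expansion clusters with at least 20 cells of both kinds, Ddit4, Klf9, Fkbp5, Dusp1 and Sgk1 were each higher in cells with Xist in 3. Errfi1 was in 0 of 4. Whether sex, the animal or another feature of these cells goes with the Sgk1 level cannot be told apart.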

How the data were processed

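The authors deposited raw UMI counts per gene and cell barcode for 1 library per medium, and the submitters' processing notes name Cell Ranger 2.1.1 and mm10. Not given in the sources used here are the annotation release, cell calling and strand setting. The 10 genes and the lists beside them were chosen with earlier results of these data known; any gene of these lists could be named, as could the 3 genes most alike over cells (r of at least 0.2) and the 5 leading genes of a cluster. Some genes that this rule names are not reported here. Counts were summed over kept cells and scaled to CPM. Ratios carry exact conditional binomial intervals, levels exact Poisson intervals and shares exact Clopper-Pearson intervals, all at 95%. UMIs of 1 library are not replicates, so no test was made. Cells were thinned without replacement to 2000 UMIs. Clusters came from scanpy 1.11.5 and igraph 0.11.9 (Leiden, resolution 0.6, 20 components, 2000 variable genes, 15 neighbours). Doublets were kept; Scrublet marked 4 expansion and 2 induction cells. Coordinates are from GENCODE M21 (GRCm38, the assembly of mm10), matched by gene ID. The ratio code was tested on simulated data. Other tools were pandas 2.3.3, scipy 1.17.1, numpy 2.4.6 and Python 3.11.15.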

Additional observations from a re-analysis of the deposited data

Results flagged for a closer look

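Sgk1 was singled out because its ratio between the media had opposite signs in the 2 kinds of cells. Cells with Xist gave a log2 ratio of induction over expansion of 1.01 (0.86 to 1.16). Cells with a Y-linked UMI gave -0.72 (-0.92 to -0.51). The difference itself was not tested, because each medium had 1 library. The ratio over all cells was 0.19.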

How the results depend on the processing

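The count of genes at least 2-fold higher was 8 of 10 and stayed between 6 and 9 over 13 alternatives, 7 of which gave 8. It was 6 after scaling to the median gene (6.65% of all genes). It was 7 without mitochondrial and ribosomal protein genes (6.51%), after thinning before summing (11.3%), in cells with Y-linked transcripts (8.46%) and without induction cluster 5 (8.1%), an alternative chosen after seeing the data. It was 9 in cells with Xist (12.0%). Ddit4 fell below 2-fold without cluster 5 (log2 ratio 0.91). Over 11 alternatives the log2 ratio ranged from 2.75 to 3.18 for Fkbp5, 1.99 to 2.38 for Klf9, 1.77 to 2.19 for Tsc22d3, 1.72 to 2.36 for Errfi1, 1.36 to 1.67 for Dusp1, 0.85 to 1.68 for Per1, 0.87 to 1.30 for Ddit4, 0.17 to 0.56 for Nr3c1 and 4.93 to 6.33 for Zbtb16, the last value resting on 1 expansion UMI after thinning (interval 3.81 to 11.6). Sgk1 was at or below 0 in 4 of them, among them the cells without cluster 5 (-0.20, -0.33 to -0.08). At Leiden resolution 1.0 the highest Sgk1 level of an induction cluster was 345 CPM in place of 1363 CPM. Shares of cells moved with the number of UMIs kept. The shallower induction library limits low levels, with a floor of 0.326 CPM. No paired analysis was possible because each medium had 1 library.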
